A study of Homo sapiens with 24 samples.

Results

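The replacement of HAR123 by its mouse ortholog was profiled in undifferentiated human embryonic stem cells (hESCs), and the transcriptomes of the edited cells (mHAR123) and of unedited cells (hHAR123) were compared across all genes. The comparison takes the 3 mHAR123 and the 3 hHAR123 libraries of the stem cell stage, 6 of the 24 RNA-seq libraries in the series, as the sample labels assign them. All libraries come from H9, an established hESC line. The hHAR123 cells carry the human element, and in mHAR123 cells it was exchanged through a CRISPR-Cas9 knock-in. A pair of independent clones was made for each replacement, and the labels do not say which library came from which clone, so p-values measure the spread between these libraries. The ortholog, the editing and the clone cannot be told apart in this design. An effect below means the difference between the labelled groups. Further edited hESCs, each with 3 libraries, served for direct comparison at the same stage. They carry the chimpanzee ortholog (cHAR123) or lack the element (HAR123-KO). The mHAR123 and hHAR123 cells were also differentiated toward neuroectoderm (ECTO) for 5 days with 500 ng/ml Noggin, a BMP antagonist, and 10 µM SB431542, an inhibitor of TGF-beta receptor kinases. Summed gene counts ran from 28475300 to 34492989 in the mHAR123 and from 31682811 to 35198684 in the hHAR123 stem cell libraries.

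Human accelerated regions are stretches of the genome that changed little over mammalian evolution and then gathered many substitutions in the human lineage. HAR123 is one of them and acts as a neural enhancer, a short DNA element that raises transcription of genes in cis. It lies in an intron of SMG6, which encodes an endonuclease of nonsense-mediated mRNA decay, so exon counts do not check the edit itself. Undifferentiated hESCs are held in the pluripotent state by a circuit around POU5F1, SOX2 and NANOG.

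The pluripotency genes gave the check on the labelled cell type. None of 14 core pluripotency genes was called under the rule used throughout, which required an adjusted p under 0.01 by edgeR's quasi-likelihood test and a log2 fold change (log2 FC) over 1 in size. Their summed level was 9398 to 9586 counts per 1000000 gene counts (CPM) in the mHAR123 and 9431 to 9573 CPM in the hHAR123 libraries. POU5F1 was at a mean of 1079 CPM against 1139 CPM in hHAR123. The log2 FC of SOX2 was 0.00 (edgeR adjusted p = 0.972). NANOG was lower by a small margin (log2 FC −0.20, SE 0.029, edgeR adjusted p = 2.18e-07), and ZFP42, a transcription factor of the undifferentiated state, was higher (log2 FC 0.42). Markers of the germ layers summed to a few CPM in both groups. The summed level of 10 mesoderm markers was 4.95 to 5.10 CPM in mHAR123 and 3.79 to 4.38 CPM in hHAR123, that of 9 endoderm markers 4.30 to 4.57 and 3.43 to 3.69 CPM, and that of 8 neuroectoderm markers 5.02 to 5.06 and 5.33 to 5.84 CPM. Neural crest markers summed to 103 to 107 CPM in mHAR123 and 107 to 112 CPM in hHAR123, chiefly through ETS1 and FOXD3, and neuronal genes to 83.1 to 87.3 and 83.4 to 85.6 CPM. Many of these genes had too few counts to be tested. No gene was called among the 4 of 10 mesoderm, 2 of 9 endoderm, 4 of 8 neuroectoderm and 5 of 8 neural crest genes that were tested. The same held for the 3 of 10 trophectoderm and amnion, 9 of 14 naive pluripotency, 9 of 15 neuronal and 6 of 9 fibroblast genes tested.

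Replacement with the mouse ortholog was accompanied by many modest increases and by fewer, steeper decreases. Of 21139 genes with enough counts to be tested, 217 were called higher in mHAR123 (1.03% of the genes tested) and 42 were called lower (0.199%). Many were at low levels, with 145 of the 259 called genes at a mean under 1 CPM. A mean of 1 CPM or more was reached by 94 of the higher and 20 of the lower genes, and by 16481 of all tested genes. The median log2 FC was 1.32 among the higher and −2.45 among the lower genes. A log2 FC above 2 was reached by 16 of the higher genes (7.37%), and one below −2 by 24 of the lower genes (57.1%). In 11 of the lower genes every mHAR123 library held at most 3 counts. Protein-coding genes made up 103 of the higher and 22 of the lower genes, and long noncoding RNAs 87 and 14. The values of the mHAR123 and hHAR123 libraries did not overlap for 256 of the 259 called genes, and the same held for 8200 of all tested genes (38.8%). Without a threshold on the fold, 1907 genes were higher (9.02%) and 2150 were lower (10.2%) at an adjusted p under 0.01, and the median size of their log2 FC was 0.233. With DESeq2 in place of edgeR, and the same thresholds, 87 genes were called higher and 20 lower.

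**Figure D1:**
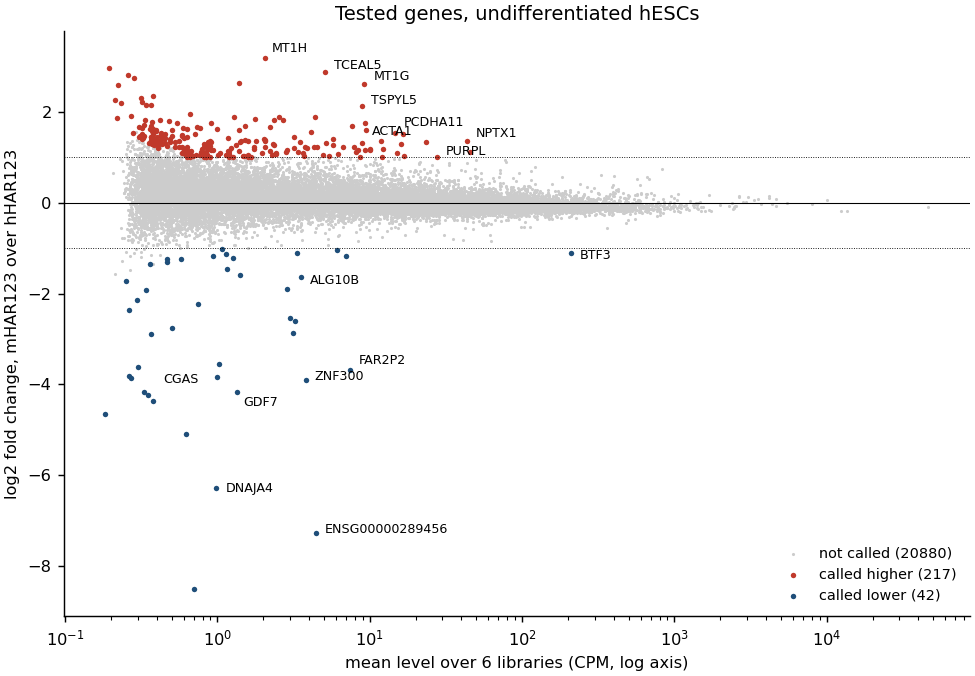
Each point is a tested gene, placed by its mean level in the stem cell libraries (CPM, log axis) and its log2 fold change in mHAR123 against hHAR123, with called genes coloured. The 217 higher genes form a dense band with a median of 1.32, while the 42 lower genes are fewer and reach further from 0, with a median of −2.45.

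The metallothioneins were the gene family with the most uniform increase. These small cysteine-rich proteins bind zinc, copper and cadmium, and most of them are encoded side by side on chromosome 16. Their genes respond to zinc through MTF1, a zinc-sensing transcription factor that binds metal response elements, short promoter motifs with the core TGCACNC or TGCGCNC. In the 250 bases upstream of the transcription start, MT2A held 7 copies of this core, MT1H held 8 and MT1X held 4. Both strands were searched, and the cores stand in capitals in the sequences below, taken from RefSeq (GRCh38.p14, forward strand) as examples from the family. The promoters of MT1E, MT1F and MT1G were not used here.
MT2A, chr16:56608334-56608583: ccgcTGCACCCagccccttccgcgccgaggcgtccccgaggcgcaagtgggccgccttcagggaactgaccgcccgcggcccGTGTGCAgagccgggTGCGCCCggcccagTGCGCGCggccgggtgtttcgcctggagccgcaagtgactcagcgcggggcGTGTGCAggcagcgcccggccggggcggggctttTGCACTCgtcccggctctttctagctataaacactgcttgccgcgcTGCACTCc
MT1H, chr16:56669564-56669813: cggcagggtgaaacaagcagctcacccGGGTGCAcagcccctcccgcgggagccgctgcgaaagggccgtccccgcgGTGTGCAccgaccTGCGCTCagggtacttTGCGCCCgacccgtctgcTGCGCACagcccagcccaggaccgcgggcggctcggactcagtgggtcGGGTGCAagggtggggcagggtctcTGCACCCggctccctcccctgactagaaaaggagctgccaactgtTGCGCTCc
MT1X, chr16:56682220-56682469: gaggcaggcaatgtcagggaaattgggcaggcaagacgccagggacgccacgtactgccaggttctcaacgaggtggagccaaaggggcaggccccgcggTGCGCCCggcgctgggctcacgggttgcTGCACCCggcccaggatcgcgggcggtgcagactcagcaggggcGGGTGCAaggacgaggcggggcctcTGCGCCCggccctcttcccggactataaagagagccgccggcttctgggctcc
Of 27305 RefSeq promoters cut in the same way, 24.7% held at least 1 core, 1.56% at least 3 and 0.121% at least 5. The share with at least 1 core was 32.8% among promoters of all tested genes and 33% among those of the genes called higher. A match describes the letters alone and is no evidence of binding.

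All 6 metallothionein genes with enough counts were called higher, with a median log2 FC of 2.26 against 0.0068 over all tested genes. The other 6 listed, MT1A, MT1B, MT1L, MT1M, MT3 and MT4, had too few counts to be tested. The summed level of the family was 44.7 to 48.7 CPM in mHAR123 and 12.8 to 13.0 CPM in hHAR123. MT1G (ENSG00000125144, chr16:56666730-56668065) was at 17.4, 14.3 and 16.2 CPM in the mHAR123 libraries against 2.59, 2.59 and 2.41 CPM in hHAR123 (log2 FC 2.62, SE 0.099, edgeR adjusted p = 1.56e-25). MT1H was at 3.45, 4.00 and 3.66 CPM against 0.473, 0.422 and 0.284 CPM (log2 FC 3.19, SE 0.208, edgeR adjusted p = 6.35e-17). Neither gene overlapped between the groups, as held for 38.8% of all tested genes, and the gaps were far wider than the spread within them. MT1X was at 10.8, 10.8 and 12 CPM against 4.55, 5.18 and 5.31 CPM and had the smallest rise of the 6 (log2 FC 1.12, SE 0.09). MT2A was at 7.02, 5.90 and 6.05 CPM against 2.75, 2.44 and 2.73 CPM (log2 FC 1.23, SE 0.119). MT1E and MT1F had log2 FCs of 2.64 and 1.90. Metallothionein genes are near-identical copies, so reads may have been split among them, which leaves the family sum firmer than any single gene. None of 25 genes of zinc transport and sensing was called (20 tested, median log2 FC −0.03).

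The family was also higher than in the other edited stem cells, by less. In mHAR123 against cHAR123, 15 genes were called higher (0.0716% of 20950 tested) and 18 lower (0.0859%), with no metallothionein among them. At any fold with an adjusted p under 0.01, 5 of the 6 were higher (median log2 FC 0.74), as were 91 of the 20950. In mHAR123 against HAR123-KO, 21 genes were called higher (0.100% of 20926) and 30 lower (0.143%), or 4 higher and 6 lower with DESeq2. The higher ones included MT1G (log2 FC 1.0, edgeR adjusted p = 1.49e-10) and MT1E (log2 FC 1.02), and the median of the 6 was 0.77. MT1X did not pass in either comparison, at 0.32 against cHAR123 and 0.15 against HAR123-KO (edgeR adjusted p = 0.211). Against hHAR123, MT1G had a log2 FC of 1.65 in cHAR123 and 1.63 in HAR123-KO, beside 2.62 in mHAR123. These 3 comparisons share the hHAR123 libraries.

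**Figure D2:**
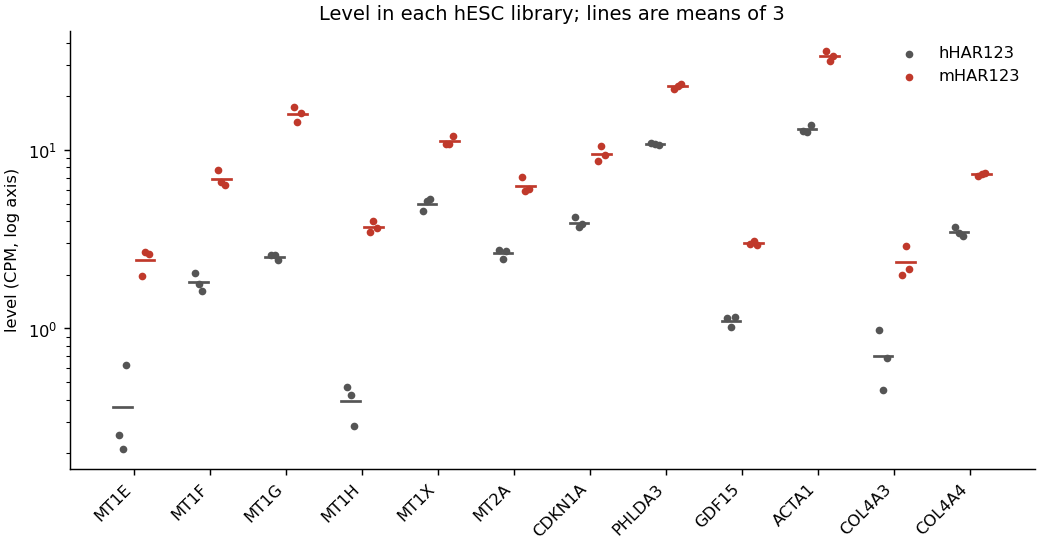
Levels of 12 genes in each of the 6 stem cell libraries (CPM, log axis), with each point a library and a line at each group's mean. The mHAR123 and hHAR123 libraries are separate for every gene shown, as they are for 38.8% of all tested genes. MT1G moves from 2.41 to 2.59 CPM up to 14.3 to 17.4 CPM.

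Target genes of p53, the transcription factor that answers DNA damage and other stress, were mostly higher. Of 24 listed and tested, 3 were called higher and none lower, 19 were higher at any fold with an adjusted p under 0.01 and 1 was lower, and 23 had a positive log2 FC (median 0.34). Over all tested genes 1.03% were called higher, and 9.02% were higher and 10.2% lower at any fold. CDKN1A, the p21 inhibitor of cyclin-dependent kinases, was at 8.70, 10.5 and 9.33 CPM in mHAR123 against 4.23, 3.70 and 3.84 CPM (log2 FC 1.23, SE 0.1, edgeR adjusted p = 1.08e-13). PHLDA3, an inhibitor of AKT signalling, was at 22.1, 22.7 and 23.3 CPM against 10.9, 10.8 and 10.6 CPM (log2 FC 1.04, SE 0.062, edgeR adjusted p = 3.62e-18). GDF15, a secreted stress-induced cytokine, was at 2.96, 3.09 and 2.94 CPM against 1.14, 1.02 and 1.16 CPM (log2 FC 1.39, SE 0.169, edgeR adjusted p = 9.15e-09). None of these 3 genes overlapped between the groups, as held for 38.8% of all tested genes. Smaller increases passed the adjusted p for FAS, the death receptor (0.89), DDB2, a sensor of ultraviolet damage (0.68), and BBC3, the proapoptotic PUMA (0.52), while MDM2, which marks p53 for degradation, had a log2 FC of 0.03 (edgeR adjusted p = 0.49).

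Noncoding genes linked to p53, chosen after their values were seen, were also higher. MIR34AHG, the host gene of the p53-induced miR-34a, was at 11.2, 12 and 10.4 CPM against 4.89, 5.00 and 4.15 CPM (log2 FC 1.22). LNCTAM34A, transcribed from the same locus on the opposite strand, had a log2 FC of 1.75, and reads of this pair cannot be told apart if counting ignored strand. PURPL, a p53-induced lncRNA, was at 34.6, 37.3 and 39.8 CPM against 16.8, 18.1 and 18.6 CPM (log2 FC 1.02), and left the called genes at 0.98 without hHAR123 replicate 1 and at 0.97 without mHAR123 replicate 3. Compared directly, the p53 list had a median log2 FC of 0.14 against cHAR123 and of 0.15 against HAR123-KO, with 4 and 7 genes higher at an adjusted p under 0.01. None was lower against cHAR123 and 1 was lower against HAR123-KO. Over all tested genes at that adjusted p, 91 of 20950 were higher and 73 lower against cHAR123. Against HAR123-KO 641 of 20926 were higher and 804 lower.

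Genes of the contractile cytoskeleton and the extracellular matrix made up a further group. Of 19 tested muscle actin and contractile genes, 3 were called higher and none lower, and 10 were higher at any fold (median log2 FC 0.47). The shares over all tested genes were 1.03% called higher, and 9.02% higher and 10.2% lower at any fold. ACTA1, skeletal muscle actin, was at 35.8, 31.7 and 33.5 CPM against 12.7, 12.6 and 13.8 CPM (log2 FC 1.33, SE 0.059, edgeR adjusted p = 3.87e-23). ACTA2, smooth muscle actin, rose from 1, 5 and 4 counts to 12, 21 and 15 counts (log2 FC 2.30), and TNNT2, cardiac troponin T, had a log2 FC of 1.1. TAGLN, an actin-binding protein of smooth muscle, rose by less (0.72). Among 27 tested targets of the mechanosensitive YAP and TEAD factors 16 were higher and 1 was lower at an adjusted p under 0.01, with a median of 0.30.

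Collagens moved in 1 direction where they passed. Of 38 tested, 20 were higher at an adjusted p under 0.01, none was lower, and 2 were called (median log2 FC 0.31). Among all tested genes 9.02% were higher and 10.2% lower at that adjusted p, and 1.03% were called higher. Both of the called collagens were higher. They were COL4A3 (log2 FC 1.69) and COL4A4 (log2 FC 1.03, or 0.98 and no longer called without hHAR123 replicate 3), adjacent genes for basement membrane collagen. COL1A1, the main chain of fibrillar collagen, rose from a mean of 88.2 to 156 CPM (log2 FC 0.78). Of 31 tested laminin and integrin genes, 22 were higher and 1 lower at an adjusted p under 0.01 (median 0.24). The only one called was ITGAM, whose adjusted p of 0.00259 by edgeR passed 0.01 to between 0.011 and 0.0194 when hHAR123 replicate 1 or 2 or mHAR123 replicate 1 or 3 was left out. The summed level of 9 fibroblast markers, COL1A1 among them, was 700 to 734 CPM in mHAR123 and 584 to 609 CPM in hHAR123. Its largest member, THY1, was at a mean of 404 and 386 CPM (log2 FC 0.03, edgeR adjusted p = 0.499). Of the 6 tested, COL1A1, COL1A2 (0.32) and PDGFRB (0.35) were higher at an adjusted p under 0.01 and none was lower. In bulk RNA, more cells of a type and more RNA per cell cannot be told apart. Compared directly with HAR123-KO, ACTA1 was lower in mHAR123 (log2 FC −0.72, edgeR adjusted p = 9.8e-14), and against cHAR123 its log2 FC was 0.11 (edgeR adjusted p = 0.533). Direct medians against cHAR123 and HAR123-KO were 0.01 and −0.08 for contractile genes and 0.05 and −0.05 for YAP and TEAD targets. They were −0.01 and 0.11 for collagens and 0.03 and 0.02 for laminins and integrins. Against the same hHAR123 libraries the collagen medians were 0.31 in cHAR123 and 0.17 in HAR123-KO.

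Signalling lists held few calls, to be read beside the 1.03% of all tested genes called higher. At any fold with an adjusted p under 0.01, 9.02% of all tested genes were higher and 10.2% lower. Of 36 tested WNT genes 7 were higher and 6 lower at an adjusted p under 0.01 (median log2 FC 0.08), and 2 were called higher, FZD10, a WNT receptor (log2 FC 1.21), and WNT7B, a ligand (1.42), and WNT7B passed 0.01 to an adjusted p of 0.0139 to 0.031 without hHAR123 replicate 1 or mHAR123 replicate 1 or 2. HES4, a Notch effector, was the only one of 22 tested Notch genes to be called (log2 FC 1.36), and 11 were higher and 3 lower at any fold (median 0.11). Among 36 tested BMP, Nodal and TGF-beta genes none was called, and 10 were higher and 3 lower at any fold with a median of 0.17. Those higher included CER1 (0.88), LEFTY2 (0.69), LEFTY1 (0.61) and NODAL (0.41). The 3 lower were TGFBR1 (−0.203), SMAD7 (−0.175) and ID3 (−0.141). These members were chosen after their values were seen. None of 28 tested FGF genes was called (median 0.07). Of 24 tested targets of ATF4, the transcription factor of the integrated stress response, GDF15 was the only one called, with a median of 0.10. NPTX1, a secreted neuronal pentraxin outside these lists and chosen after its values were seen, was at 61.6, 61.9 and 64.7 CPM against 23.1, 24.8 and 23.3 CPM (log2 FC 1.36, SE 0.044, edgeR adjusted p = 3.52e-28). It was also higher than in cHAR123 (0.70, edgeR adjusted p = 2.36e-17) and in HAR123-KO (1.0, edgeR adjusted p = 6.29e-19), both inside the fold threshold.

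**Figure D3:**
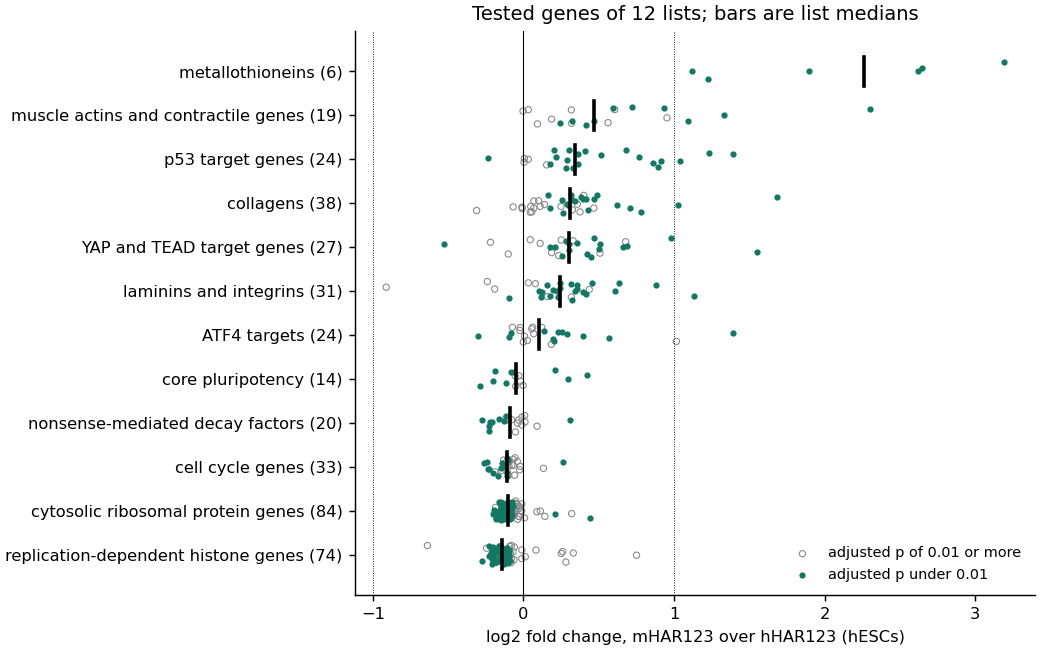
Each point is a tested gene of 1 of 12 gene lists, placed by its log2 fold change in mHAR123 against hHAR123, with a bar at each list's median. The metallothioneins sit furthest to the right with a median of 2.26, and most of the histone genes lie close to their median of −0.14.

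The genes that fell included several that were near silence in mHAR123 cells. The lncRNA ENSG00000289456 (GRCh38, chr6:35563135-35566952) was at 8.87, 8.61 and 8.84 CPM in hHAR123 and held at most 3 counts in each mHAR123 library, at least 89.3-fold lower. DNAJA4, a cochaperone of HSP70, held 55, 64 and 76 counts in hHAR123 and 0, 0 and 2 counts in mHAR123, at least 19.7-fold lower. It was the only gene called among 33 tested heat shock chaperones, whose median log2 FC was −0.07, beside 0.199% of all tested genes called lower. ZNF300, a KRAB zinc finger gene on chromosome 5, was at 0.348, 0.527 and 0.615 CPM against 7.20, 6.59 and 7.53 CPM (log2 FC −3.89, SE 0.169, edgeR adjusted p = 2.2e-23). ZNF283, a further zinc finger gene, was at 0.812, 1.09 and 0.922 CPM against 5.30, 5.78 and 5.48 CPM (log2 FC −2.60). GDF7, a BMP family ligand of the dorsal neural tube, was at 0.203, 0.105 and 0.102 CPM against 3.06, 2.44 and 2.10 CPM (log2 FC −4.17, SE 0.299, edgeR adjusted p = 1.83e-15). CGAS, the cytosolic DNA sensor, was at 0.087, 0.211 and 0.102 CPM against 2.02, 1.75 and 1.85 CPM (log2 FC −3.84). FAR2P2 and FAR2P3, copies of one pseudogene that may share reads, fell by 3.67 and 2.87 on the log2 scale. Each of these genes was separate between the groups in all 6 libraries, as were 38.8% of all tested genes.

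None of these steep decreases was called against the other edited stem cells. ZNF300 was at 0.338, 0.295 and 0.196 CPM in cHAR123 and at 0.429, 0.306 and 0.485 CPM in HAR123-KO, and the direct log2 FC of mHAR123 was 0.82 (edgeR adjusted p = 0.514) and 0.25 (edgeR adjusted p = 0.711). FAR2P2 gave −0.39 (edgeR adjusted p = 0.628) and −0.00 (edgeR adjusted p = 1). GDF7, CGAS and DNAJA4 were not tested directly, since they had too few counts in all 3 edited genotypes. Across the 259 called genes the direct comparisons were mostly within the thresholds. Of the 217 higher genes, 214 were tested against cHAR123, with 5 called higher and none lower (median log2 FC 0.33), and 215 against HAR123-KO, with 6 called higher and 1 lower (median 0.30). Of the 42 lower genes, 20 were tested against cHAR123, with 3 called lower (median −0.34), and 22 against HAR123-KO, with 5 called lower (median −0.35). The direct comparisons share the mHAR123 libraries with the comparison to hHAR123, which favours the same direction in both.

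In 5 genes mHAR123 was called in the same direction against all 3 other genotypes of the stem cell stage. TCEAL5 and PCDHA11 were higher, and ALG10B, PCDHGA11 and the unnamed gene ENSG00000278915 were lower. TCEAL5 (ENSG00000204065, chrX:103273691-103276750, reverse strand), of the transcription elongation factor A-like family, was at 9.10, 9.03 and 8.92 CPM in mHAR123 and 1.20, 1.02 and 1.36 CPM in hHAR123 (log2 FC 2.87, SE 0.128, edgeR adjusted p = 6.01e-23). It was at 0.225, 0.258 and 0.196 CPM in cHAR123 and 0.686, 0.204 and 0.394 CPM in HAR123-KO, where the direct log2 FCs were 5.29 (edgeR adjusted p = 5.69e-28) and 4.44 (edgeR adjusted p = 1.62e-19). All 3 mHAR123 libraries thus lay above every other stem cell library, while cHAR123 and HAR123-KO lay below hHAR123. TSPYL5, of the nucleosome assembly protein superfamily, rose by a similar step (14.2, 15 and 14.8 CPM against 3.44, 2.89 and 3.38 CPM, log2 FC 2.14), but had log2 FCs of −0.08 (edgeR adjusted p = 0.789) against cHAR123 and 0.14 (edgeR adjusted p = 0.198) against HAR123-KO. Of 16 tested TCEAL, BEX and TSPYL genes, 2 were called higher and 1 lower (BEX5, at least 6.78-fold lower), and the median log2 FC was −0.14. The shares over all tested genes were 1.03% called higher and 0.199% called lower.

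ALG10B (ENSG00000175548, chr12:38316762-38329721), which encodes a glucosyltransferase of N-glycan assembly, was at 1.83, 1.79 and 1.67 CPM in mHAR123 and 5.49, 5.21 and 5.28 CPM in hHAR123 (log2 FC −1.63, SE 0.131, edgeR adjusted p = 7.5e-14). Against cHAR123 the log2 FC was −1.80 (edgeR adjusted p = 6.05e-15) and against HAR123-KO −1.59 (edgeR adjusted p = 1.72e-10). ALG10B has a close paralog, ALG10, with which reads may be shared. BTF3 (ENSG00000145741, chr5:73498408-73505667), a subunit of the nascent polypeptide-associated complex at the ribosome and chosen after its values were seen, was at 136, 137 and 134 CPM against 283, 284 and 286 CPM (log2 FC −1.11, SE 0.026, edgeR adjusted p = 2.78e-33). Its direct log2 FCs of −0.94 against cHAR123 (edgeR adjusted p = 1.41e-29) and −0.99 against HAR123-KO (edgeR adjusted p = 2.39e-24) were just inside the fold threshold. In cHAR123 BTF3 was at 252 to 262 CPM and in HAR123-KO at 263 to 272 CPM, so the mHAR123 libraries were lowest by a wide gap.

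The clustered protocadherins on chromosome 5 encode cell surface adhesion proteins, and each neuron uses its own choice of variable exons. Of 57 tested, PCDHA11 was called higher and PCDHGA11 lower, and the other 55 had log2 FCs between −0.72 (PCDHB16) and 0.63 (PCDHA7). Over all tested genes 1.03% were called higher and 0.199% lower. PCDHA11 (ENSG00000249158, chr5:140868183-141012347) was at 23.1, 21.0 and 21.2 CPM against 7.10, 7.17 and 7.81 CPM (log2 FC 1.53, SE 0.071, edgeR adjusted p = 2.47e-22), and at 3.91 to 4.61 CPM in cHAR123 and 2.73 to 3.57 CPM in HAR123-KO. PCDHGA11 (ENSG00000253873, chr5:141421047-141512975) was at 4.15, 4.95 and 3.93 CPM against 9.78, 9.24 and 9.66 CPM (log2 FC −1.18, SE 0.097, edgeR adjusted p = 1.47e-13), and at 11.1 to 12 and 12.1 to 14.7 CPM in the other edited cells. The direct log2 FCs were 2.34 and 2.82 for PCDHA11 and −1.44 and −1.63 for PCDHGA11. The medians of the alpha, beta and gamma clusters were 0.11, −0.09 and −0.07, far from the values of these 2 genes. ENSG00000278915, on the opposite strand within the alpha cluster, was at 0.783, 0.702 and 0.649 CPM against 2.43, 1.93 and 1.96 CPM (log2 FC −1.59). Members of a cluster share constant exons, and how the counting treated strand and shared exons was not stated.

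**Figure D4:**
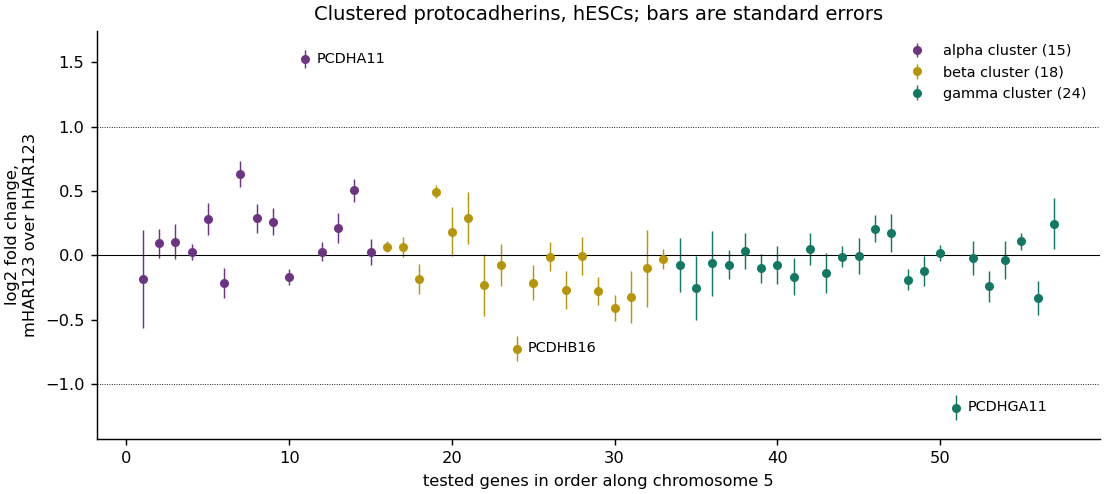
Log2 fold change in mHAR123 against hHAR123 stem cells for each tested clustered protocadherin, in cluster order, with bars for the standard error. PCDHA11 at 1.53 and PCDHGA11 at −1.18 stand apart, and the other 55 genes lie between −0.72 and 0.63.

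Ribosomal protein, histone and cell cycle genes shifted slightly downward. At an adjusted p under 0.01, 10.2% of all tested genes were lower and 9.02% higher. Of 84 tested cytosolic ribosomal protein genes 53 were lower and 2 higher at an adjusted p under 0.01, with a median log2 FC of −0.10 and none called. The 2 higher were the paralogs RPS27L (log2 FC 0.44), itself a target of p53, and RPL39L (0.21). Of 74 tested replication-dependent histone genes 52 were lower and none higher (median −0.14). Of 33 tested cell cycle genes 14 were lower and 1 higher (median −0.11). In cHAR123 and HAR123-KO against the same hHAR123 libraries the histone medians were −0.13 and −0.09, and compared directly mHAR123 differed by medians of −0.01 and −0.04. Values also moved with the annotated exon length of a gene, from a median of −0.03 in the shortest quartile of genes at 1 CPM or more to 0.01 in the longest. The part of length in these shifts was not tested. Of 23 tested mitochondrially encoded genes 7 were higher and none lower at any fold, 12 had a positive log2 FC, and the median was 0.02. Their summed level was 42900 to 44657 CPM in mHAR123 against 40161 to 40982 CPM in hHAR123. In cHAR123 and HAR123-KO against the same hHAR123 libraries 11 and 13 were higher and none lower at any fold. Compared directly, mHAR123 had 2 lower than cHAR123 and 6 lower than HAR123-KO, and none higher. Over all tested genes 73 of 20950 were lower than in cHAR123 and 804 of 20926 lower than in HAR123-KO at an adjusted p under 0.01. None of 33 glycolysis, 25 cholesterol synthesis, 20 nonsense-mediated decay, 13 DNA methylation, 27 imprinted, 10 germline or 23 mitochondrially encoded genes that were tested was called.

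Genes near the edited element were examined because enhancers act in cis. SMG6 (ENSG00000070366, chr17:2059839-2303785) was at 70.9, 67.0 and 68.8 CPM in mHAR123 against 77.1, 79.5 and 78.6 CPM in hHAR123 (log2 FC −0.23, SE 0.035, edgeR adjusted p = 2.03e-06). The groups did not overlap, as held for 38.8% of all tested genes, and the decrease was small. Of 71 annotated genes within 500 kb of SMG6, 30 were tested and none was called, with log2 FCs between −0.58 and 0.61 and a median of −0.03. HIC1, a transcriptional repressor gene that overlaps the end of SMG6 on the other strand, was below the count filter, with 0, 0 and 1 counts against 9, 10 and 5 counts, at least 2.47-fold lower. In a fit without that filter, 54 of these genes had a value and HIC1 was the only one called (edgeR adjusted p = 0.00059). The study reported that loss of HAR123 lowered HIC1 in neuroectoderm and not in stem cells. HIC1 values in cHAR123, HAR123-KO and neuroectoderm are not given here, so its decrease is not shown to be particular to mHAR123. Elsewhere, 71 of the called genes lay within 500 kb of another called gene, in 28 runs. Apart from the metallothioneins (chr16:56608584-56684196), the longest run held 6 higher genes around OVCH2 and OR5P2 (chr11:7689437-7965447). OVCH2, an ovochymase gene, was at 2.26, 1.79 and 2.22 CPM against 0.568, 0.452 and 0.966 CPM (log2 FC 1.60). OR5P2, an olfactory receptor gene with close copies nearby, had a log2 FC of 2.35 at 0.457 to 0.928 CPM in mHAR123. The median log2 FC lay between −0.02 and 0.03 on each of 23 chromosomes, and the share of genes called was highest on chromosome 5, at 2.4%.

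The difference between mHAR123 and hHAR123 was then followed into neuroectoderm. In neuroectoderm the assignment of cHAR123 and mHAR123 differs between the count columns and a table of the study, so libraries are named here by column label. Values labelled cHAR123 are given beside those labelled mHAR123. The libraries labelled mHAR123 gave 128 genes higher (0.603% of 21220) and 91 lower (0.429%) against hHAR123 neuroectoderm, and those labelled cHAR123 gave 111 higher (0.522% of 21275) and 97 lower (0.456%). TCEAL5 was at 6.39, 5.59 and 5.49 CPM in the first set, 0.12, 0.127 and 0.0897 CPM in the second and 0.999, 1.24 and 0.683 CPM in hHAR123. ALG10B was at 9.78, 8.57 and 8.31 CPM in the first, 28.1, 30.5 and 27.7 CPM in the second and 28.9, 27.1 and 29.0 CPM in hHAR123. BTF3 was at 109, 106 and 107 CPM in the first, 214, 221 and 217 CPM in the second and 243, 235 and 238 CPM in hHAR123. Their log2 FCs with the mHAR123 label were 2.61, −1.63 and −1.11, each called, beside stem cell values of 2.87, −1.63 and −1.11. With the cHAR123 label they were −3.04, 0.04 and −0.12, so TCEAL5 had the opposite sign, and BTF3 the same sign with a far smaller size. The other genes called against all 3 genotypes in stem cells were closer to hHAR123 in neuroectoderm. PCDHA11 had a log2 FC of 0.99 and PCDHGA11 one of −0.46 with the mHAR123 label, both inside the fold threshold, and −0.16 and 0.15 with the cHAR123 label. ENSG00000278915 was at −0.28 (edgeR adjusted p = 0.59) and 0.28 (edgeR adjusted p = 0.619).

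**Figure D5:**
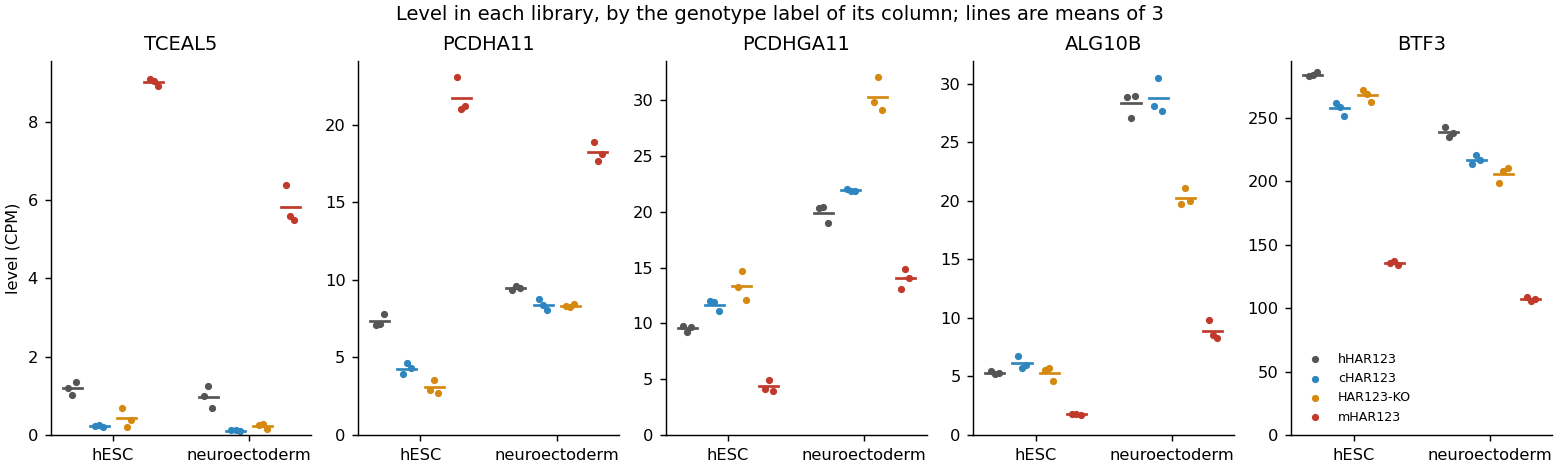
Levels of TCEAL5, PCDHA11, PCDHGA11, ALG10B and BTF3 (CPM) in the 3 libraries of each of the 4 genotypes, as stem cells and as neuroectoderm, by column label, with a line at each group's mean. The mHAR123 libraries stand apart from the other genotypes at both stages for TCEAL5, ALG10B and BTF3.

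The genes called in stem cells were then read in neuroectoderm. Of the 42 lower genes 31 were tested there, and 19 were lower and none higher with the mHAR123 label (median log2 FC −1.66), while 29 were tested with the cHAR123 label, with 18 lower and 1 higher (median −1.73). Of the 217 higher genes 106 were tested, and 13 were higher and 2 lower (median 0.12), or, with the cHAR123 label, 11 of 105 higher and 2 lower (median 0.08). The 2 lower with the mHAR123 label were ACTA1 (log2 FC −1.23) and GDF15 (log2 FC −1.03), which were at −0.26 and −0.65 and not called with the cHAR123 label. ZNF300 was at 0.654, 0.538 and 0.995 CPM against 8.47, 7.65 and 7.94 CPM in hHAR123 and so stayed low (log2 FC −3.42, or −5.10 with the cHAR123 label). GDF7 did not, at 11.4, 10.8 and 11.7 CPM against 6.71, 7.69 and 7.43 CPM (log2 FC 0.67, or 1.07 and called higher with the cHAR123 label). MT1F was still called higher with the mHAR123 label (log2 FC 1.12, edgeR adjusted p = 5.33e-05) and not with the cHAR123 label (0.78, edgeR adjusted p = 0.0104).

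The stage difference was tested itself as an interaction, the effect in neuroectoderm minus that in stem cells. Over all genes 72 were called higher (0.304% of 23681) and 157 lower (0.663%). Of the 217 genes higher in stem cells 211 were tested, with 35 called lower and none higher, and of the 42 lower genes 39 were tested, with 5 called higher and none lower. The interaction holds the stem cell libraries by which these genes were picked, which favours these directions. Only 106 of the 217 had enough counts to be tested in neuroectoderm alone. The genes whose effect dropped included CDKN1A (−1.53), PHLDA3 (−1.13), ACTA1 (−2.54) and MT1E (−3.29), with −1.74, −1.27, −1.58 and −3.04 for the cHAR123 label, all called. MT1E was too low in neuroectoderm to be tested there alone. The stage differences of MT1F (−0.75, edgeR adjusted p = 0.0234) and MT2A (−0.39, edgeR adjusted p = 0.484) did not pass. MT1G (−1.84, edgeR adjusted p = 0.639) and MT1H (0.07, edgeR adjusted p = 0.662) did not pass either, at 0.0865 CPM or less in mHAR123 and hHAR123 neuroectoderm. The p53 list had a median of −0.04 in neuroectoderm, with 6 genes lower and none higher at an adjusted p under 0.01, and one of −0.08 with 4 lower and 1 higher for the cHAR123 label. The histone list had a median of 0.13 with 30 genes higher and 1 lower, and of 0.06 with 14 higher and 4 lower for the cHAR123 label. Over all tested genes at that adjusted p, 1867 of 21220 were higher and 1105 lower. With the cHAR123 label 1256 of 21275 were higher and 849 lower. No call of a stage difference was made with the mHAR123 label for TCEAL5 (−0.23), ALG10B (0.02), BTF3 (0.02) or ZNF300 (0.50). With the cHAR123 label the values were −5.90, 1.68 and 1.0, all called, and −1.20 for ZNF300 (edgeR adjusted p = 0.0313).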

How the data were processed

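RNA-seq libraries of H9 hESCs and neuroectoderm were ribosomal RNA depleted, directional and paired-end. Per the labels and the study's methods, the authors aligned reads with STAR 2.5.2b to GRCh38 and counted them per gene with featureCounts, and the deposited values are raw counts. The strand setting of the counting was not given in the sources used here. One gene, whose entry was broken over 3 lines, was left out, and 61551 genes were used.

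Counts were tested with edgeR 4.0.16 in R 4.3.3 (filterByExpr, TMM, quasi-likelihood test, Benjamini-Hochberg adjustment), using the libraries of the groups compared. Genes were called at an adjusted p under 0.01 and a log2 FC over 1 in size, as in the study. Standard errors are the size of the log2 FC over the square root of F. CPM were computed from summed gene counts. The scripts were tested on simulated counts. Alternatives were DESeq2 1.42.0, its size factors, no filter, other thresholds, all libraries of a stage in 1 fit and leaving out each library.

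Named genes were the largest changes at a mean of 1 CPM or more, called list members (in lists without a call, the most abundant members), genes within 500 kb of SMG6, genes called against all 3 other genotypes and genes called at both stages. BTF3, NPTX1, OVCH2, OR5P2, MIR34AHG, LNCTAM34A, PURPL and further members of lists (among them MT1X, MT2A, FAS, DDB2, BBC3, MDM2, TAGLN, COL1A1, PCDHA7, PCDHB16, SOX2, NANOG and ZFP42) were chosen after their values were seen. One gene is not reported here. The comparison, lists and rule were chosen with earlier results of these data known. Gene coordinates are those of the deposited counts (GRCh38), gene classes are from GENCODE, and promoters are from RefSeq.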

Additional observations from a re-analysis of the deposited data

Results flagged for a closer look

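A test of the difference between stages, the mHAR123 effect in neuroectoderm minus that in stem cells, passed for the following genes among those named, on the log2 scale and by column label. The effect was lower in neuroectoderm for MT1E (−3.29), MT1X (−1.45), ACTA2 (−3.19), ACTA1 (−2.54), TAGLN (−1.47) and COL1A1 (−1.10). It was also lower for the p53 targets GDF15 (−2.40), CDKN1A (−1.53) and PHLDA3 (−1.13), for MIR34AHG (−1.55) and LNCTAM34A (−1.58), and for NPTX1 (−1.77), LHX1 (−1.68), ECEL1P1 (−1.66) and HES4 (−1.32). Of the other metallothioneins, MT1F (−0.75, edgeR adjusted p = 0.0234) and MT2A (−0.39, edgeR adjusted p = 0.484) did not pass. Neither did MT1G (−1.84, edgeR adjusted p = 0.639) and MT1H (0.07, edgeR adjusted p = 0.662), which were at most at 0.0865 CPM in mHAR123 and hHAR123 neuroectoderm. MT1E, MT1G and MT1H were too low in neuroectoderm to be tested there alone.

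The effect was higher in neuroectoderm for GDF7 (4.86), which was lower than in hHAR123 as stem cells and higher as neuroectoderm. It was higher by less for FAR2P2 (1.62), FAR2P3 (1.23), L1TD1 (1.16) and ENSG00000278915 (1.33). Among neural crest markers it was higher for FOXD3 (3.25), ETS1 (2.04), SOX10 (1.94) and SNAI2 (1.76). With the neuroectoderm libraries labelled cHAR123 in place, each of these genes was called in the same direction except TAGLN (−0.73), NPTX1 (−0.91), LHX1 (−1.03), L1TD1 (0.59) and SNAI2 (1.04). Calls in stem cells and these stage tests use the same stem cell libraries, which favours a smaller effect in neuroectoderm. No explanation of these differences was tested.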

How the results depend on the processing

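Calls against hHAR123 stem cells numbered 259, 107 with DESeq2 and 4057 without a fold threshold, and 230 to 249 with each library left out. Calls against cHAR123 numbered 164 without a fold threshold and 27 to 34 with a library left out. Against HAR123-KO they numbered 10 with DESeq2, 93 at an adjusted p under 0.05, 1445 without a fold threshold and 39 to 56 with a library left out. In neuroectoderm they numbered 131 with DESeq2 (93 higher, 38 lower, a share of 71.0% higher against 58.4%), 2972 without a fold threshold and 203 to 219 with a library left out. Stage differences numbered 151 with DESeq2, 487 at an adjusted p under 0.05, 3035 without a fold threshold and 205 to 229 with a library left out, and 244 with the neuroectoderm libraries labelled cHAR123. With the replicate number as a block the 5 counts were 260, 33, 40, 229 and 205. The numbers are not shown to pair libraries, since deviations from the group means of mHAR123 and hHAR123 correlated by 0.11, 0.03 and 0.08 for equal numbers, although each library correlated best with its own number. The cause of these changes was not tested. No named gene reversed. Calls of COL4A4, ITGAM, WNT7B and PURPL were lost without single libraries, and LHX1 was called without hHAR123 replicate 1 (1.18) or mHAR123 replicate 3 (1.15). Medians of the lists were recomputed under the same alternatives after seeing the data. HIC1 is tested only without the count filter, where it was called.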
